A study of Mus musculus with 22 samples.

Results

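Macrophages and monocytes are the myeloid phagocytes that accompany fibroblasts in heart tissue, and their transcripts were read here in RNA of cardiac fibroblast samples. The set held 36 genes of the 23359 in the expression table. They were taken by gene symbol and sorted by known role into 12 resident macrophage genes, 8 inflammatory and monocyte-derived genes and 16 genes shared by myeloid cells. All animals were male wild-type C57BL/6 mice of 10 to 14 weeks, with no transgene, and the labelled tissue was heart. Fibroblasts came from hearts 3 days and 10 days after TAC (n = 3 each), 5 days after MI (n = 2), and after 4 days and 10 days of swimming (n = 3 each). The comparison fibroblasts came from hearts 3 days after a sham operation (n = 2) and from sedentary mice (n = 3), and cardiomyocytes came from sedentary mice (n = 3). The labels give only the abbreviations, which are read here as transverse aortic constriction (a pressure load on the left ventricle) and myocardial infarction. The labels do not say that replicates came from separate animals, so p-values measure the spread between these libraries, which may be technical.

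The heart holds macrophages that settled before birth and renew in place, and macrophages that arise from blood monocytes. Resident cells are known for Lyve1, Folr2, Cbr2, Cd163 and Mrc1, and they clear dying cells and debris. Monocytes that carry Ccr2 leave the blood toward its ligands Ccl2 and Ccl7 and enter injured myocardium, where their descendants can take up lipid and matrix and switch on Trem2, Gpnmb and Lgals3. Csf1, made by fibroblasts among other cells, acts through Csf1r to keep both kinds alive.

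Expression was given as FPKM (fragments scaled to transcript length and to the mapped total), which sets genes on a per-length scale. Differences are on the log2(FPKM + 1) scale, which understates changes of genes with low values. They were tested with limma across all genes with at least 1 FPKM in 2 libraries, and a gene is called where its Benjamini-Hochberg adjusted p is under 0.05. All 36 genes passed that filter. In such bulk samples, fewer cells of a type and less RNA per cell cannot be told apart.

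The depth of the libraries is not known, and their summed FPKM differed between groups, with 197221 to 205139 FPKM after 4 days of swimming and 85128 to 119382 FPKM in sedentary fibroblasts. The labels held against defining genes. Cardiomyocytes had 689 to 872 FPKM of the cardiac troponin gene Tnnt2, against 1.76 to 19.1 FPKM in fibroblast libraries. Pdgfra, a receptor gene of fibroblasts, had 0.610 to 0.886 FPKM in cardiomyocytes, against 2.14 to 14.7 FPKM in fibroblast libraries. Markers of T, B and NK lymphocytes were low, with a sum over 17 genes of 0.816 to 5.67 FPKM in the fibroblast libraries. The fibroblast libraries divided by transcript length. The slope of log2 expression on log2 transcript length over all tested genes was -0.53 to -0.91 in the TAC and swim libraries, against -0.17 to -0.30 in the MI, sham and sedentary libraries. This division cannot be told apart from the groups wherever TAC or swim libraries are set against sham, sedentary or MI libraries. Those comparisons are therefore also given from a fit in which each library's trend with transcript length and GC content was removed, called the length-corrected fit. Sham replicate 2 stood apart for the macrophage genes, being above sham replicate 1 in 35 of the 36, by a median of 0.81 log2 units, while over 9425 genes the median gap was 0.08.

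The sequences of 2 gene families bear on how the values can be read. The lysozyme genes Lyz1 and Lyz2 lie side by side on mouse chromosome 10, and their coding sequences have 447 bases each, of which 22 differ (95.1% identical). The first 300 coding bases, which hold 20 of the differences, are printed from GENCODE transcripts (GRCm38), 5′ to 3′ along the minus strand and joined over the exons, with the differing bases in capitals, to show how little sets the genes apart. The whole coding span is chr10:117288583-117292838 for Lyz1 and chr10:117278121-117282242 for Lyz2.
Lyz1: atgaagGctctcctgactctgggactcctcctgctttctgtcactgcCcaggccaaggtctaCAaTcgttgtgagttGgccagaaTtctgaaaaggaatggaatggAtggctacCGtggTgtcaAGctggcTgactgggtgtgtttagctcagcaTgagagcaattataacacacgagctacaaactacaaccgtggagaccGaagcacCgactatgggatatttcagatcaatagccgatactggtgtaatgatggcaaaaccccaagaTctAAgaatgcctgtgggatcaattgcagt
Lyz2: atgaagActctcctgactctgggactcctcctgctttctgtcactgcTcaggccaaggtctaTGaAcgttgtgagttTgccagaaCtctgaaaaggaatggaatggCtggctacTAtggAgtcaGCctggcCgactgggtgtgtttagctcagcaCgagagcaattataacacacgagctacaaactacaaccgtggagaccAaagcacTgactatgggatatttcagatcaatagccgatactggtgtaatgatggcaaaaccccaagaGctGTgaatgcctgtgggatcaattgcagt
The longest stretch without a difference has 118 bases, and over the aligned transcripts 1211 of 1262 bases are the same. The ratio of Lyz1 to Lyz2 FPKM was 0.983 to 1.15 in all 22 libraries, so the 2 values cannot be taken as independent. How reads were divided between the near-identical genes was not tested.

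C1qa, C1qb and C1qc encode the chains of C1q, which opens the classical complement pathway, and they lie together on chromosome 4. The sequence before the start of C1qb and C1qc is printed because all 3 genes were called higher after 4 and 10 days of swimming and after 10 days of TAC than in sedentary samples. It comes from RefSeq (GRCm38.p6), minus strand, 5′ to 3′, with capitals marking AGGAAGT, a letter string bound by ETS factors such as PU.1, and TCATGTG, a letter string bound by MITF, or their reverse complements. The C1qb window, chr4:136886201-136886450, holds the 250 bases before the RefSeq start. For C1qc the 99 bases farthest from the RefSeq start are printed, chr4:136893066-136893164, because an annotated GENCODE transcript begins there, and the 2 strings lie 195 and 178 bases before the RefSeq start.
C1qb: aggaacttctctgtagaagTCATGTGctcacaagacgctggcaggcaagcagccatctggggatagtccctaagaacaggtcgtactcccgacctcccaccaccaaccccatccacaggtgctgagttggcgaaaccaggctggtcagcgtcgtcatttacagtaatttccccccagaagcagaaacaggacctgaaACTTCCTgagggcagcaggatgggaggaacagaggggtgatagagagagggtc
C1qc: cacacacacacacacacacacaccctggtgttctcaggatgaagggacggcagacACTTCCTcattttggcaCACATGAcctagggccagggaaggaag
Both strands were searched in windows of 250 bases before each start, and the 2 strings do not overlap in these windows. AGGAAGT was in 7.69% of 32851 such windows over the genome and in 11 of the 31 windows of the 26 macrophage genes searched. TCATGTG was in 3.25% of all windows and in 2 of the 31, those of C1qb and C1qc. C1qa was not among the 26 genes. A match is a description of letters and not a binding site.

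**Figure D1:**
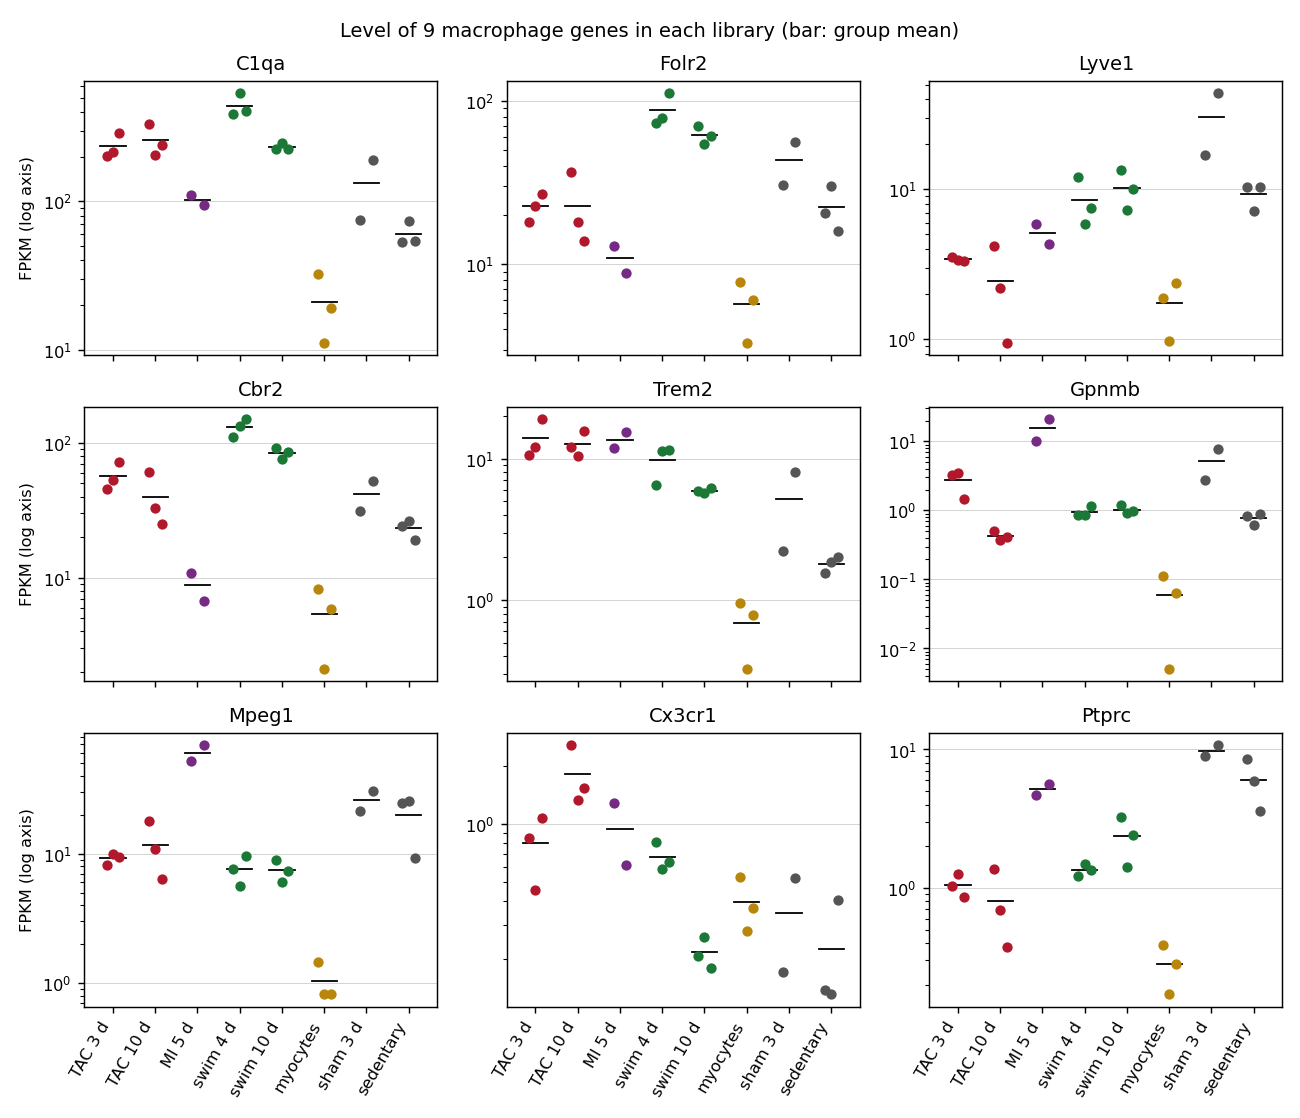
FPKM of 9 macrophage genes in every library, on a log axis, with points for libraries and a bar for the group mean. Gpnmb and Mpeg1 stand highest in the MI libraries (10.2 and 20.8 FPKM of Gpnmb), C1qa stands highest after 4 days of swimming (387 to 534 FPKM), and Lyve1 stands highest in sham replicate 2 (43.7 FPKM).

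At 5 days after MI, fibroblast samples carried more Gpnmb, Trem2 and Mpeg1 transcript and less Cbr2 transcript than sedentary samples. Of the 36 genes, 8 were called higher, where 8.93% of all tested genes were, and 1 was called lower, where 2.34% were. The inflammatory group held 4 of the 8 (Gpnmb, Trem2, Lgals3 and Ccr2), the shared group held 3 (Mpeg1, Laptm5 and Cx3cr1) and the resident group held 1 (Ms4a7). Median differences were 0.90 for the 8 inflammatory genes, 0.66 for the 16 shared genes and -0.30 for the 12 resident genes, beside 0.10 over all tested genes. Sedentary samples are not labelled as operated, so an effect of an operation cannot be told apart from that of the infarct here. In 3 day sham samples all 36 genes also averaged above sedentary samples, with 0 called.

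Gpnmb, a transmembrane glycoprotein of lysosome-rich phagocytes, had 10.2 and 20.8 FPKM in the MI libraries, against 0.817, 0.611 and 0.901 FPKM in the sedentary libraries. Both MI libraries were far above every sedentary library, and the log2 difference was 3.14 ± 0.31 (SE, adjusted p = 1.95e-06). Trem2, a lipid receptor that signals through the adaptor Tyrobp, had 11.8 and 15.4 FPKM after MI, against 1.54, 1.86 and 2.01 FPKM in sedentary samples. Its groups also lay apart, with a difference of 2.37 ± 0.34 (adjusted p = 0.000139). Mpeg1, the pore-forming perforin-2 of macrophages, had 51.8 and 68.6 FPKM after MI, against 24.5, 25.6 and 9.32 FPKM in sedentary samples (1.66 ± 0.39, adjusted p = 0.00903). The lower MI value of Mpeg1 was still above the highest sedentary one.

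The other genes called higher changed less. Galectin-3 (Lgals3), a lectin secreted by activated macrophages, differed by 1.23 ± 0.36 (adjusted p = 0.035), and its sedentary replicate 2, at 39.7 FPKM, lay near the MI values of 49.5 and 64.4 FPKM. Ms4a7, a membrane protein of mature macrophages, had 21.7 and 22.8 FPKM after MI, against 8.67, 16 and 5.33 FPKM in sedentary samples (1.20 ± 0.34, adjusted p = 0.0287). The lysosomal protein gene Laptm5 (1.01, adjusted p = 0.0442), the monocyte chemokine receptor gene Ccr2 (0.91, adjusted p = 0.0499) and the fractalkine receptor gene Cx3cr1 (0.65, adjusted p = 0.0342) were close to the threshold. Ccr2 and Cx3cr1 were low in level, at 2.35 and 4.73 FPKM and at 1.28 and 0.612 FPKM after MI.

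Among resident genes Cbr2 was called lower. Cbr2, a carbonyl reductase carried by resident heart macrophages, had 10.9 and 6.73 FPKM after MI, against 24.3, 26.2 and 19 FPKM in sedentary samples, with a difference of -1.32 ± 0.32 (adjusted p = 0.0118). In all, 5 genes were lower in both MI libraries than in every sedentary library, where 10.1% of all tested genes were, and all 5 were resident genes: Cbr2, Folr2, Lyve1, Pf4 and F13a1. Only Cbr2 passed the test: the folate receptor gene Folr2 differed by -0.94 (adjusted p = 0.108) and the hyaluronan receptor gene Lyve1 by -0.75. C1qa had 111 and 94.3 FPKM after MI, against 53.5, 73.5 and 54 FPKM in sedentary samples (0.77, adjusted p = 0.133), so the resident genes did not share a direction. In total 22 genes were higher in both MI libraries than in every sedentary library, where 30.4% of all tested genes were.

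With 2 MI libraries, the calls of Gpnmb and Trem2 held without any one of the 5 libraries. Without MI replicate 2, Mpeg1 (1.46, adjusted p = 0.159) and Cbr2 (-1.01, adjusted p = 0.245) were no longer called. The calls of Ms4a7, Lgals3 and Laptm5 were lost without either MI replicate and without sedentary replicate 1 or 3, Ccr2 without MI replicate 2 or sedentary replicate 1 or 3, and Cx3cr1 without MI replicate 1 or sedentary replicate 1 or 2 (0.40 to 1.42 over these settings). Scaling every library to a common median moved the median difference of all genes by -0.12, and 3 genes (Gpnmb, Trem2 and Mpeg1) were then called higher, where 6.14% of all genes were, and Cbr2 and Folr2 lower, where 4.3% were. Length-corrected, 9 genes were called higher, where 12.4% of all genes were, and 1 lower, where 3.26% were. Among other cell types, summed neutrophil markers were 7.77 to 9.43 FPKM after MI and 8.38 to 27.8 FPKM in sedentary samples, and their part in the result was not tested. The fibroblast collagen gene Col1a1 had 539 to 658 FPKM after MI, against 16.3 to 29.6 FPKM in sedentary samples.

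Swim samples had more C1q, Cbr2, Folr2, Pf4, Trem2 and Aif1 transcript than sedentary samples, while the share of the set called higher was near the share over all genes. After 4 days 16 of the 36 genes were called higher, where 38.2% of all tested genes were, and 2 lower, where 26.3% were. After 10 days 10 were called higher, where 30% of all genes were, and 2 lower, where 13.6% were. The resident group held 6 of the higher calls at each time (C1qa, C1qb, C1qc, Cbr2, Folr2 and Pf4), with median differences of 1.11 after 4 days and 0.73 after 10 days, beside 0.13 and 0.14 over all genes. Of the 16 shared genes 9 were called higher after 4 days and 3 after 10 days, and Ptprc and Mpeg1 were the lower calls at both times. Of the 8 inflammatory genes, Trem2 was called at each time, and the medians were 0.19 after 4 days and 0.00 after 10 days.

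C1qa had 387, 534 and 408 FPKM after 4 days of swimming and 224, 249 and 225 FPKM after 10 days, against 53.5, 73.5 and 54 FPKM in sedentary samples. No swim library overlapped the sedentary range, and the differences were 2.86 ± 0.28 (adjusted p = 9.51e-07) and 1.94 ± 0.28 (adjusted p = 6.93e-05). Cbr2 had 112, 133 and 149 FPKM after 4 days and 91.1, 75.6 and 85.5 FPKM after 10 days, against 24.3, 26.2 and 19 FPKM in sedentary samples (2.45 ± 0.29 and 1.82 ± 0.29). Folr2 had 72.9, 78.9 and 111 FPKM after 4 days and 70, 54.5 and 60.5 FPKM after 10 days, against 20.6, 30.3 and 16 FPKM in sedentary samples (1.95 ± 0.32 and 1.47 ± 0.32). The swim libraries of Cbr2 and Folr2 all lay above the sedentary ones, while those of MI lay below the same sedentary samples.

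Pf4, a chemokine of platelets and also of resident macrophages, differed by 2.08 ± 0.32 after 4 days and 1.26 ± 0.32 after 10 days. The 7 other platelet genes summed to 1.21 to 1.68 FPKM after 4 days and 0.784 to 1.20 FPKM after 10 days, against 0.744 to 1.34 FPKM in sedentary samples. Pf4 itself was at 99.1 FPKM or more in every swim library, and the cells it came from were not tested. Lyve1 was not among the genes called: it had 12.1, 5.89 and 7.54 FPKM after 4 days and 13.4, 7.3 and 10 FPKM after 10 days, against 10.4, 7.14 and 10.3 FPKM in sedentary samples. The other resident genes that were not called at either time were Mrc1 (the mannose receptor), Cd163 (the haemoglobin scavenger receptor), F13a1 (the coagulation factor XIII A chain), Ms4a7 and Maf (a macrophage transcription factor).

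Among shared genes, Aif1, which encodes the actin-binding protein IBA1, differed by 2.32 ± 0.21 after 4 days and 1.52 ± 0.21 after 10 days. The adaptor genes Tyrobp and Fcer1g were called higher at both times, and the Fc receptor gene Fcgr3 was called after 4 days (1.80 ± 0.39). Ptprc, the leukocyte phosphatase CD45, went the other way, with 1.22, 1.49 and 1.34 FPKM after 4 days and 3.23, 1.42 and 2.43 FPKM after 10 days, against 8.59, 5.97 and 3.58 FPKM in sedentary samples. Mpeg1 was also called lower at both times, although without sedentary replicate 1 its 10 day difference was -0.99 (adjusted p = 0.0599), and without sedentary replicate 2 it was -0.96 (adjusted p = 0.0511).

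These differences cross the division by transcript length. In the length-corrected fit C1qa remained called higher after 4 days (1.82) and 10 days (1.32), as did Cbr2 (1.50 and 1.23), C1qc (1.71 and 1.14) and Folr2 (1.19 and 0.96). In that fit 17 genes were called higher and 3 lower after 4 days, where 38.1% and 15.8% of all genes were. After 10 days 6 were called higher and 2 lower, where 28.5% and 5.79% of all genes were. After 4 days Mpeg1 (-0.54, adjusted p = 0.167), Fcer1g (0.28), Cd52 (0.27), Cd53 (0.70) and Spi1 (0.28) were not called in that fit. Ptprc (-0.75), Lgals3 (-0.89) and Cd68 (-0.81) were the lower ones. Ccr2 (0.95, adjusted p = 0.00833), F13a1 (1.09, adjusted p = 0.0305) and Maf (0.76, adjusted p = 0.0306) were called higher after 4 days in that fit only. So were Csf1r and Emr1. After 10 days Trem2, Tyrobp, Pf4, C1qb and Fcer1g were no longer among the higher ones. Ptprc (-0.57, adjusted p = 0.0583) and Mpeg1 (-0.81, adjusted p = 0.0632) were not called there, and the 2 lower ones were Ms4a7 (-0.93) and Lgals3 (-0.90). Of 11 endothelial markers 9 were called lower after 4 days of swimming, and summed haemoglobin and other erythroid markers were 15785 to 50253 FPKM after 4 days, against 74.5 to 10803 FPKM in sedentary samples. Their part in the result was not tested.

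Between 4 and 10 days of swimming limma called 0 of the 36 genes, where 0.0106% of all genes were called higher and 0.308% lower. At an unadjusted p under 0.05 there were 12, all lower at 10 days, and none was called when any one library was left out. In all, 14 genes were lower in every 10 day library than in every 4 day library, where 16.9% of all genes were. They included C1qa (-0.91, adjusted p = 0.14), Aif1 (-0.80, adjusted p = 0.123) and Tyrobp (-1.01, adjusted p = 0.143), all short transcripts. Across the 36 genes Spearman's correlation of the difference with transcript length was 0.75, and 0.166 in the length-corrected fit. The median difference was -0.63 for the 17 genes of up to 1500 bases and -0.08 for the 19 longer ones.

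After the sham operation all 36 genes had a mean above that of sedentary samples, but limma called 0 of them, where 0.0212% of all genes were called higher and 0% lower. At an unadjusted p under 0.05 there were 20, all higher, and 19 genes were higher in both sham libraries than in every sedentary library, where 14% of all genes were. Gpnmb came closest to the threshold, with 2.76 and 7.67 FPKM in sham samples, against 0.817, 0.611 and 0.901 FPKM in sedentary samples (1.69 ± 0.31, adjusted p = 0.0771). Lyve1 had 17 and 43.7 FPKM after sham, against 10.4, 7.14 and 10.3 FPKM in sedentary samples (1.48, adjusted p = 0.298). Both genes had sham replicate 2 far above sham replicate 1, and without sham replicate 1 the test called 9 genes higher.

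At 3 days after TAC, against sham samples, 7 genes were called higher, where 31.3% of all genes were, and 11 lower, where 25.8% were. The genes called higher were C1qa, C1qc, Trem2 and 4 shared genes (Tyrobp, Fcer1g, Aif1 and Cd52), while 6 resident genes, 3 inflammatory genes (Lyz1, Lyz2 and the integrin gene Itgam) and the shared genes Ptprc and Mpeg1 were lower. Median differences were -0.63 for resident, -0.35 for inflammatory and 0.16 for shared genes, beside 0.05 over all genes.

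Lyve1 had 3.52, 3.38 and 3.35 FPKM 3 days after TAC, against 17 and 43.7 FPKM after sham, with a difference of -2.68 ± 0.40 (adjusted p = 3.29e-05). The TAC values were close together and below both sham values. Ptprc had 1.03, 1.27 and 0.863 FPKM after TAC, against 8.93 and 10.7 FPKM after sham (-2.40 ± 0.28, adjusted p = 4.55e-06). F13a1 (-1.94), Cd163 (-1.75) and Mrc1 (-1.58) were lower with Lyve1. Trem2 had 10.7, 12.1 and 18.9 FPKM after TAC, against 2.23 and 8.1 FPKM after sham (1.42, adjusted p = 0.00209). Of 14 further inflammatory genes outside the set 6 were called higher and 1 lower (median 0.60), and 3 higher and 2 lower in the length-corrected fit (median 0.13).

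Most calls against sham were lost without at least 1 of the libraries. Of the 11 lower calls, 7 were kept in the length-corrected fit. Those of Lyve1, Ptprc, Aif1 and Cd52 held without each of the 5 libraries, and without sham replicate 2 there were 10 genes called higher and 2 lower, and without sham replicate 1 there were 2 higher and 13 lower. Summed neutrophil markers were 14.6 to 142 FPKM after TAC and 21.6 to 75.8 FPKM after sham, and their part was not tested. Summed lymphatic endothelial markers were 26.9 to 48.2 FPKM after TAC and 31.1 to 93.9 FPKM after sham. Of the 4 tested 0 were called, where 31.3% of all genes were higher and 25.8% lower, and their part was not tested. Length-corrected, 2 genes were called higher and 9 lower, where 28.2% and 17.4% of all genes were. There Lyve1 (-2.34) and Ptprc (-1.59) stayed lower, none of the 7 genes called higher was called, and C1qa, C1qb, C1qc and Fcer1g turned to -0.05, -0.91, -0.17 and -0.23, while Ccr2 turned to 0.93.

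At 10 days after TAC, against sedentary samples, 11 genes were called higher, where 38.8% of all genes were, and 3 lower, where 27% were. The higher ones were the C1q genes, Trem2 and the shared genes Tyrobp, Aif1, Fcgr3, Fcer1g, Laptm5, Cd52 and Cx3cr1, and the lower ones were Ptprc, Lyve1 and Mrc1. Median differences were 0.26 for resident, -0.25 for inflammatory and 0.41 for shared genes, beside 0.12 over all genes. Here too, an effect of the operation cannot be told apart from that of the pressure load.

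Trem2 had 12.2, 10.4 and 15.6 FPKM 10 days after TAC, against 1.54, 1.86 and 2.01 FPKM in sedentary samples (2.27 ± 0.31, adjusted p = 1.03e-05). C1qa had 330, 206 and 240 FPKM after TAC, against 53.5, 73.5 and 54 FPKM in sedentary samples (2.07 ± 0.28, adjusted p = 1.03e-05). Cx3cr1, at 2.55, 1.32 and 1.53 FPKM after TAC against 0.139, 0.132 and 0.406 FPKM in sedentary samples, differed by 1.17 ± 0.17 (adjusted p = 1.98e-05). All TAC libraries of these 3 genes lay above all sedentary libraries.

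Lyve1 had 4.18, 2.21 and 0.948 FPKM 10 days after TAC, against 10.4, 7.14 and 10.3 FPKM in sedentary samples (-1.67 ± 0.35, adjusted p = 0.000598). The 6 lymphatic endothelial markers summed to 23.4 to 44.1 FPKM after TAC and 56.9 to 96.0 FPKM in sedentary samples. Of the 4 tested, 2 were called lower, where 27% of all genes were, and 0 higher, where 38.8% were, and their part was not tested. Mrc1 differed by -0.98 ± 0.35 (adjusted p = 0.0222), and was not called without 10 day TAC replicate 3 (-0.51, adjusted p = 0.171) or without sedentary replicate 1 (-0.77, adjusted p = 0.101). The Lyve1 difference was -1.26 and the Trem2 difference 1.31 in the length-corrected fit, and both remained called. In that fit 11 genes were called higher and 6 lower, where 37.8% and 17.9% of all genes were. There C1qb (0.25, adjusted p = 0.44), Fcer1g (0.10) and Mrc1 (-0.20) were not called, whereas Ccr2 (1.14) and Emr1 (0.82), an adhesion receptor gene of mature macrophages, were called higher and Lyz1, Lyz2, Lgals3 and Cd68 lower.

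Between 3 and 10 days of TAC, 1 gene was called higher, where 4.42% of all genes were, and 2 lower, where 2.18% were. Gpnmb had 0.503, 0.377 and 0.417 FPKM at 10 days, against 3.21, 3.51 and 1.48 FPKM at 3 days (-1.33 ± 0.28, adjusted p = 0.00688). Lgals3 had 21.2, 18.6 and 21 FPKM at 10 days, against 49.2, 51.6 and 64.2 FPKM at 3 days (-1.39 ± 0.32, adjusted p = 0.0149), and Cx3cr1 rose by 0.63 ± 0.17 (adjusted p = 0.0334). The 10 day libraries lay apart from the 3 day ones for all 3 genes, and 7 of 11 endothelial markers were also higher at 10 days, whose part was not tested. The Gpnmb call held without each of the 6 libraries. Lgals3 was not called without 3 day TAC replicate 3 or 10 day TAC replicate 2 (-1.33 to -1.27, adjusted p 0.0589 to 0.0615), and Cx3cr1 was not called without replicate 1 or 2 at 3 days or replicate 1 or 3 at 10 days (0.45 to 0.69).

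Set against the change over swimming, the change over TAC differed for 3 genes: 2 more positive, where 4.31% of all genes were, and 1 more negative, where 1.86% were. Aif1 differed by 1.25 ± 0.30 (adjusted p = 0.0221), Cx3cr1 by 1.09 ± 0.24 (adjusted p = 0.0141) and Gpnmb by -1.39 ± 0.39 (adjusted p = 0.0434). The Cx3cr1 call held without each of the 12 libraries, the Gpnmb call was lost without 9 of them in turn (-1.43 to -1.23, adjusted p 0.0645 to 0.117) and the Aif1 call without 4 (1.06 to 1.26, adjusted p 0.0532 to 0.0755).

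**Figure D2:**
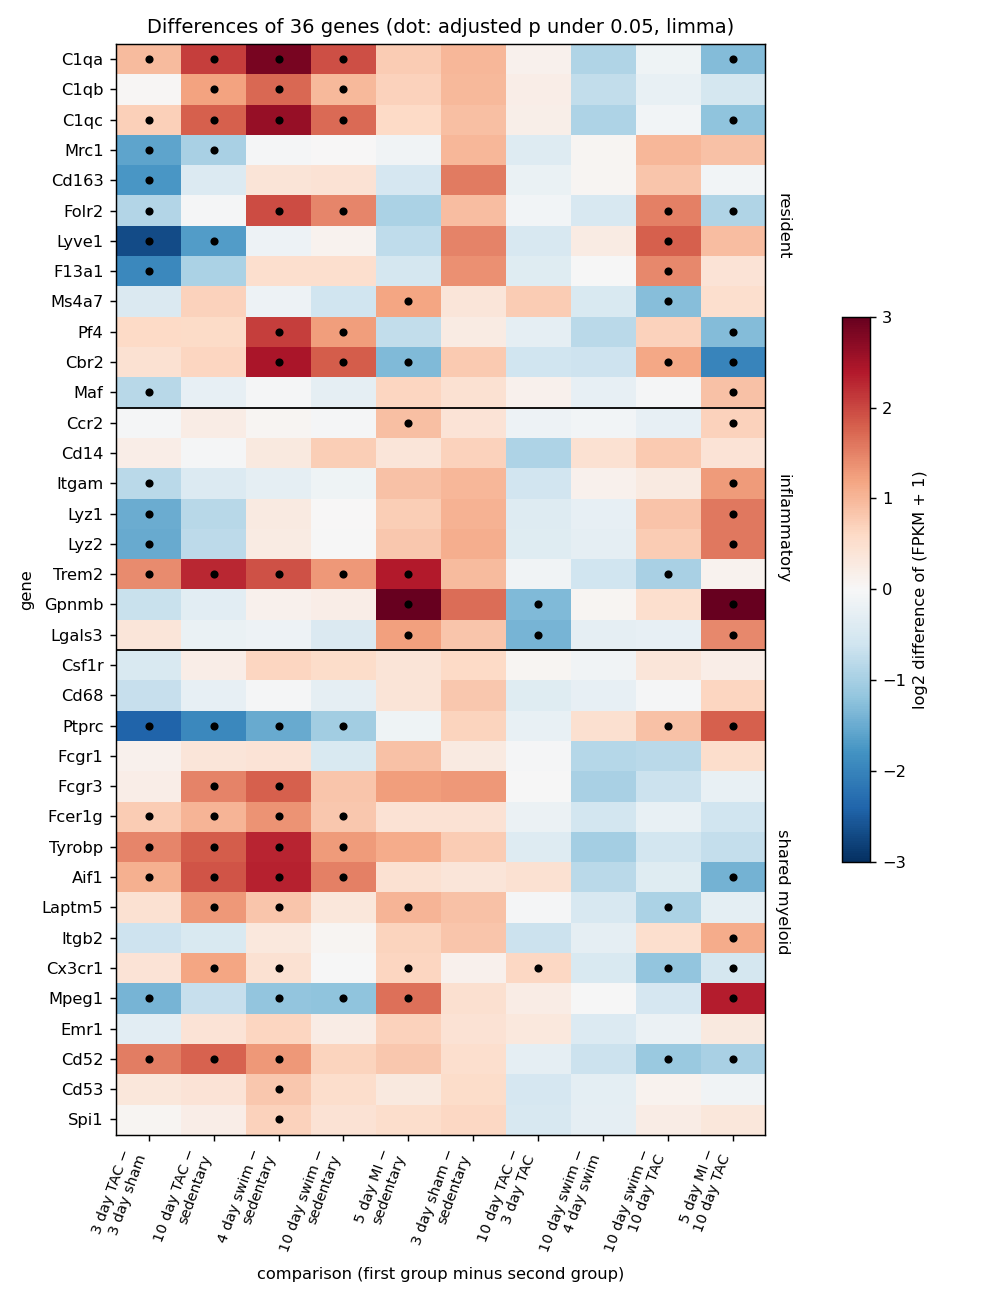
Log2(FPKM + 1) difference of each of the 36 genes (down the page, by role) in 10 comparisons (across), in colour cut at 3 in either direction, with a dot where the adjusted p was under 0.05. The column of sham minus sedentary samples is positive throughout without a dot.

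After 10 days of each load, swim and TAC samples could be set against each other within the same side of the length division, although their slopes on length were not equal (-0.53 to -0.65 in swim and -0.63 to -0.78 in TAC libraries). Of the 36 genes 5 were called higher in swim samples, where 10.9% of all genes were, and 5 lower, where 13.2% were. The resident group held 4 of the 5 higher calls (Lyve1, Folr2, F13a1 and Cbr2), and its median was 0.77 beside 0.02 over all genes. The lower calls were Ms4a7, Trem2 and the shared genes Cx3cr1, Cd52 and Laptm5.

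Lyve1 had 13.4, 7.3 and 10 FPKM after 10 days of swimming, against 4.18, 2.21 and 0.948 FPKM after 10 days of TAC (1.78 ± 0.35, adjusted p = 0.00217). Folr2 had 70, 54.5 and 60.5 FPKM in swim samples, against 36.8, 18 and 13.8 FPKM in TAC samples (1.50 ± 0.32, adjusted p = 0.00351). Cbr2 had 91.1, 75.6 and 85.5 FPKM in swim samples, against 60.6, 32.6 and 24.9 FPKM in TAC samples (1.17 ± 0.29, adjusted p = 0.00834), and F13a1 differed by 1.43 ± 0.43. Every swim library of Lyve1, Folr2 and Cbr2 lay above every TAC library, and 10 day TAC replicate 1 was the TAC library nearest to them.

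Trem2 had 5.85, 5.7 and 6.21 FPKM after swimming, against 12.2, 10.4 and 15.6 FPKM after TAC (-0.97 ± 0.31, adjusted p = 0.0305). Cx3cr1 had 0.208, 0.261 and 0.181 FPKM after swimming, against 2.55, 1.32 and 1.53 FPKM after TAC (-1.18 ± 0.17, adjusted p = 0.000157), and Ms4a7 differed by -1.29 ± 0.30 (adjusted p = 0.00652). The groups did not overlap for these genes. The C1q genes were not called, at -0.12 ± 0.28 for C1qa, -0.23 for C1qb and -0.09 for C1qc. Ptprc was higher in swim samples (0.89, adjusted p = 0.0168).

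Calls of Lyve1, Folr2, Ms4a7, Cx3cr1 and Cd52 held without each of the 6 libraries. Without 10 day TAC replicate 3, 2 genes were called higher, and Cbr2 was at 0.90 (adjusted p = 0.0594). The Trem2 call was lost without each library except 10 day TAC replicate 2 (adjusted p 0.0552 to 0.132), F13a1 without 4 of the libraries, and Ptprc and Laptm5 without 3 each. Length-corrected, 5 genes were called higher, where 10% of all genes were, and 4 lower, where 11.8% were. There Trem2 (-0.60, adjusted p = 0.117) and Ptprc (0.57, adjusted p = 0.0753) were not called and Pf4 (0.85, adjusted p = 0.0473) was called higher, while Lyve1 (1.54), Folr2 (1.62), Cbr2 (1.51) and Cx3cr1 (-1.28) remained called. Endothelial markers also differed between these samples, with 5 of 11 lower after swimming, and their part was not tested. Summed lymphatic endothelial markers were 41.1 to 43.8 FPKM in swim and 23.4 to 44.1 FPKM in TAC samples. Of the 4 tested 0 were called, where 10.9% of all genes were higher and 13.2% lower, and their part was not tested.

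**Figure D3:**
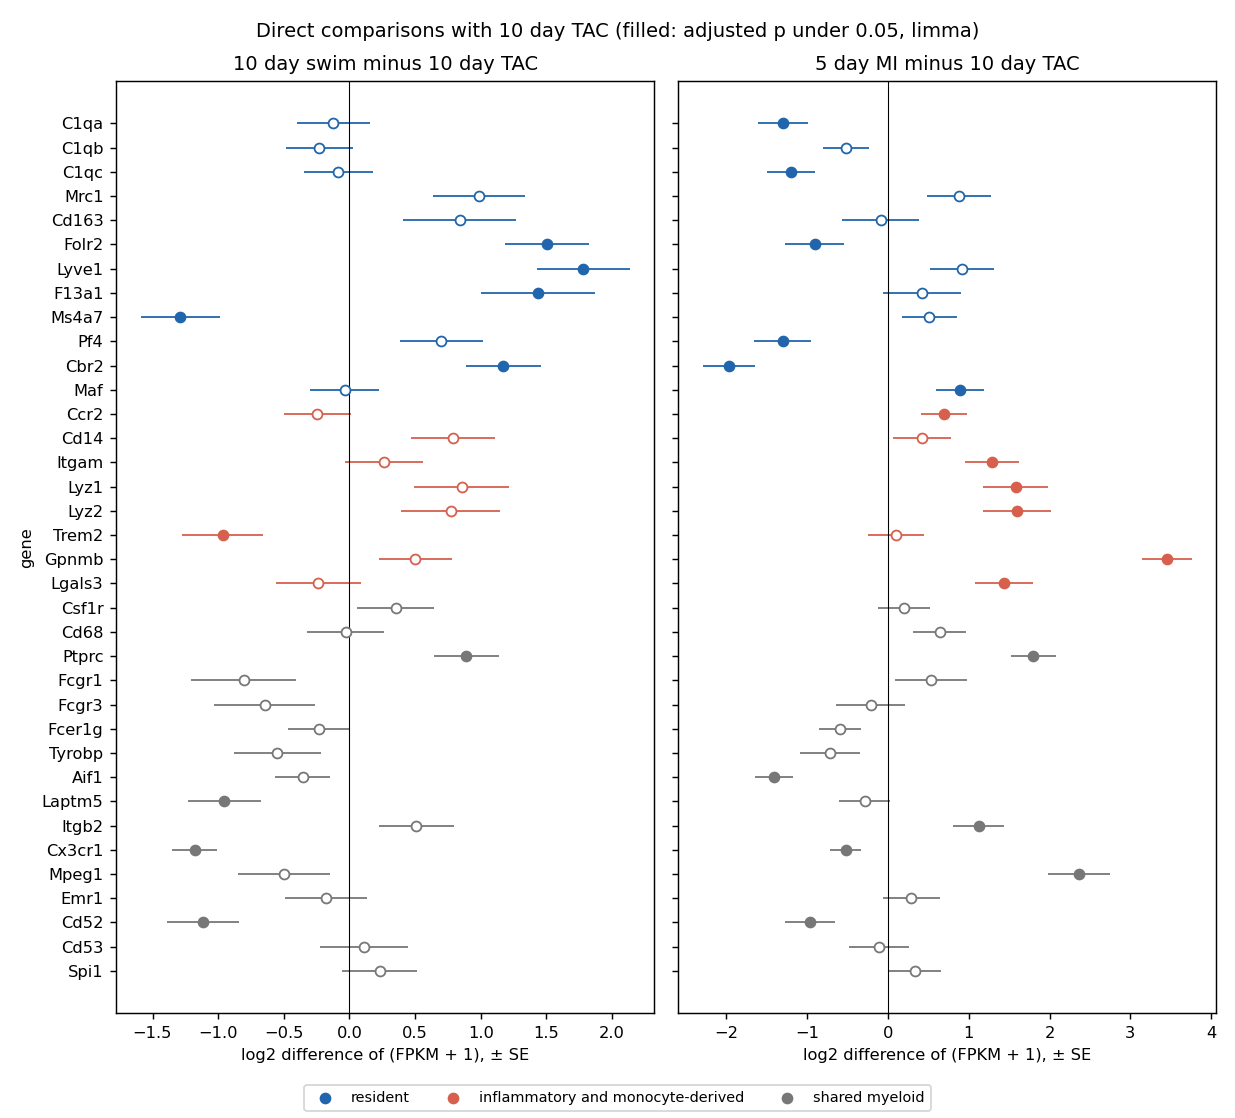
Log2(FPKM + 1) differences of the 36 genes with SE bars, 10 day swim minus 10 day TAC and 5 day MI minus 10 day TAC, by role, filled where called. Lyve1 lies highest in the swim panel (1.78) and Gpnmb in the MI panel (3.45), and Cbr2 is on opposite sides in the panels (1.17 and -1.97).

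MI samples set against 10 day TAC samples had 10 genes called higher, where 27.1% of all genes were, and 8 lower, where 30.1% were. Of the 8 inflammatory genes 6 were called higher (Gpnmb, Lgals3, Lyz1, Lyz2, Itgam and Ccr2), where the lysozyme pair counts as 2 genes, with a group median of 1.36 beside -0.01 over all genes. The resident group had 1 higher (Maf) and 5 lower (C1qa, C1qc, Cbr2, Folr2 and Pf4), with a median of -0.31.

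Gpnmb had 10.2 and 20.8 FPKM after MI, against 0.503, 0.377 and 0.417 FPKM after TAC (3.45 ± 0.31, adjusted p = 8.72e-07). Mpeg1 had 51.8 and 68.6 FPKM after MI, against 17.9, 10.8 and 6.33 FPKM after TAC (2.36 ± 0.39, adjusted p = 0.000113). Cbr2 had 10.9 and 6.73 FPKM after MI, against 60.6, 32.6 and 24.9 FPKM after TAC (-1.97 ± 0.32, adjusted p = 0.000103). The 2 groups lay well apart for each. This comparison crosses the length division: length-corrected, Cbr2 (-1.06), Aif1 (-0.63) and Cx3cr1 (-0.87) were the 3 genes called lower, where 23.9% of all genes were, 9 genes were called higher, where 16.2% were, and Ccr2 turned to -0.23. Without MI replicate 2 the calls of Itgam (1.06), Itgb2 (0.96), Ccr2, Maf, Folr2 and Cx3cr1 were lost, and without MI replicate 1 those of Cd52 (-0.84) and Folr2. Calls also rested on single TAC libraries. Folr2 and Cx3cr1 were lost without 10 day TAC replicate 1, Ccr2 without replicate 2 or 3, and Maf without replicate 3. The MI and TAC groups also differ in day, and a time difference cannot be told apart from the kind of injury.

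The remaining genes were called in few of the comparisons between fibroblast groups as deposited. Csf1r (the receptor of Csf1), Cd68 (a lysosomal glycoprotein), Fcgr1 (a high-affinity Fc receptor), Emr1 and Cd14 were called in none of them. In the length-corrected fit Csf1r was called higher after 4 days (1.04, adjusted p = 0.00567) and 10 days (0.84, adjusted p = 0.0313) of swimming than in sedentary samples, Emr1 after 4 days (1.02, adjusted p = 0.00751), and Cd68 was called lower after 4 days of swimming (-0.81) and 10 days of TAC (-0.92) than in sedentary samples and after 3 days of TAC than in sham samples (-1.39). Cd68 was also called higher in MI than in 10 day TAC samples in that fit (1.32). Csf1r lay between 15.5 FPKM in 10 day TAC replicate 3 and 46.6 FPKM in sham replicate 2, and Cd14 between 87.8 FPKM in sedentary replicate 3 and 283 FPKM in 3 day TAC replicate 1. The integrin gene Itgb2, the partner chain of Itgam, was called in MI against 10 day TAC (1.12 ± 0.32, adjusted p = 0.00684). The tetraspanin gene Cd53 (0.81) and Spi1 (0.69), which encodes the myeloid factor PU.1, were called after 4 days of swimming, and each of those calls was lost without at least 4 of the 6 libraries in turn. Cd52, a small surface glycoprotein of leukocytes, was called more often. It had 63.6, 49.8 and 62.4 FPKM 10 days after TAC, against 15, 24 and 12 FPKM in sedentary samples (1.78 ± 0.27, adjusted p = 3.41e-05). The TAC values of Cd52 all lay above the sedentary ones.

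The mean log2(FPKM + 1) of the 12 resident genes minus that of the 8 inflammatory genes describes the balance of the sets in each library. It was -0.48, -0.04 and -0.19 in 3 day TAC libraries, 0.59, 0.27 and 0.14 in 10 day TAC libraries and -1.02 and -1.56 in MI libraries. It was 1.18, 1.13 and 0.61 after 4 days of swimming and 0.58, 0.85 and 0.58 after 10 days, against 0.01 and 0.11 in sham libraries and 0.12, 0.06 and 0.11 in sedentary libraries. MI libraries lay lowest and swim libraries highest, although 10 day TAC replicate 1 fell among the swim values. Sham replicate 2, in which nearly all 36 genes were high, had a balance close to that of sham replicate 1. With length and GC removed the group means kept their order, from -1.31 after MI to 0.90 after 4 days of swimming. With the median of each set in place of its mean, the order changed: it was -0.68 in 3 day TAC, 0.23 in 10 day TAC, -1.31 in MI, 1.66 in 4 day swim and 1.85 in 10 day swim samples, against 1.19 in sham and 1.02 in sedentary samples. By the median 10 day TAC samples lay below sedentary samples, and 10 day swim samples above 4 day ones. No test was made of this balance.

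**Figure D4:**
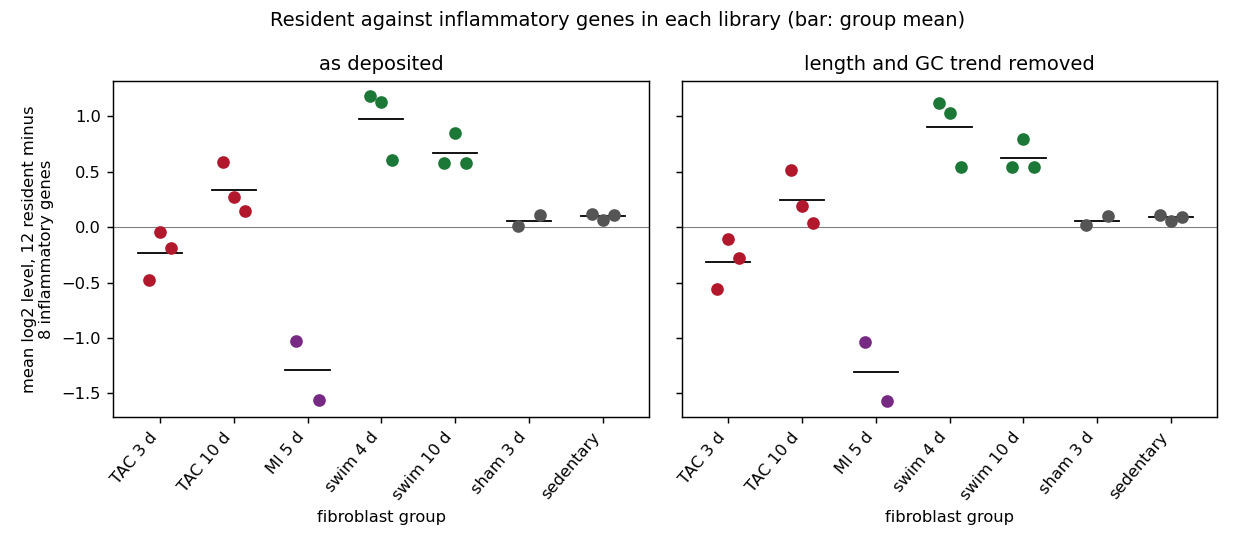
Mean log2(FPKM + 1) of the resident genes minus that of the inflammatory genes in each fibroblast library, placed by group, with a bar for the group mean. The left panel is from the deposited values and the right panel from length-corrected values. In the left panel the MI libraries lie lowest (balance -1.02 and -1.56) and the 4 day swim libraries reach highest (0.61 to 1.18). The sham libraries lie close together there (0.01 and 0.11).

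Transcript length ran alongside the differences of the 36 genes. Across these genes, which share libraries, Spearman's correlation of length with the difference was -0.643 for 10 day TAC against sedentary and -0.691 for 4 day swim against sedentary, and -0.0387 for MI against sedentary. In the length-corrected fit it was -0.104, -0.17 and -0.0329. At a length of 1500 bases, chosen after the values were seen, 17 genes were at or under and 19 were over. After 4 days of swimming 12 short genes were called higher and none lower (median 1.80), while of the long genes 4 were higher and 2 lower (median 0.32). The correction brought the medians to 0.92 and 0.70. Ptprc and Mpeg1 are long, and Aif1, Tyrobp, Cd52 and the C1q genes are short.

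**Figure D5:**
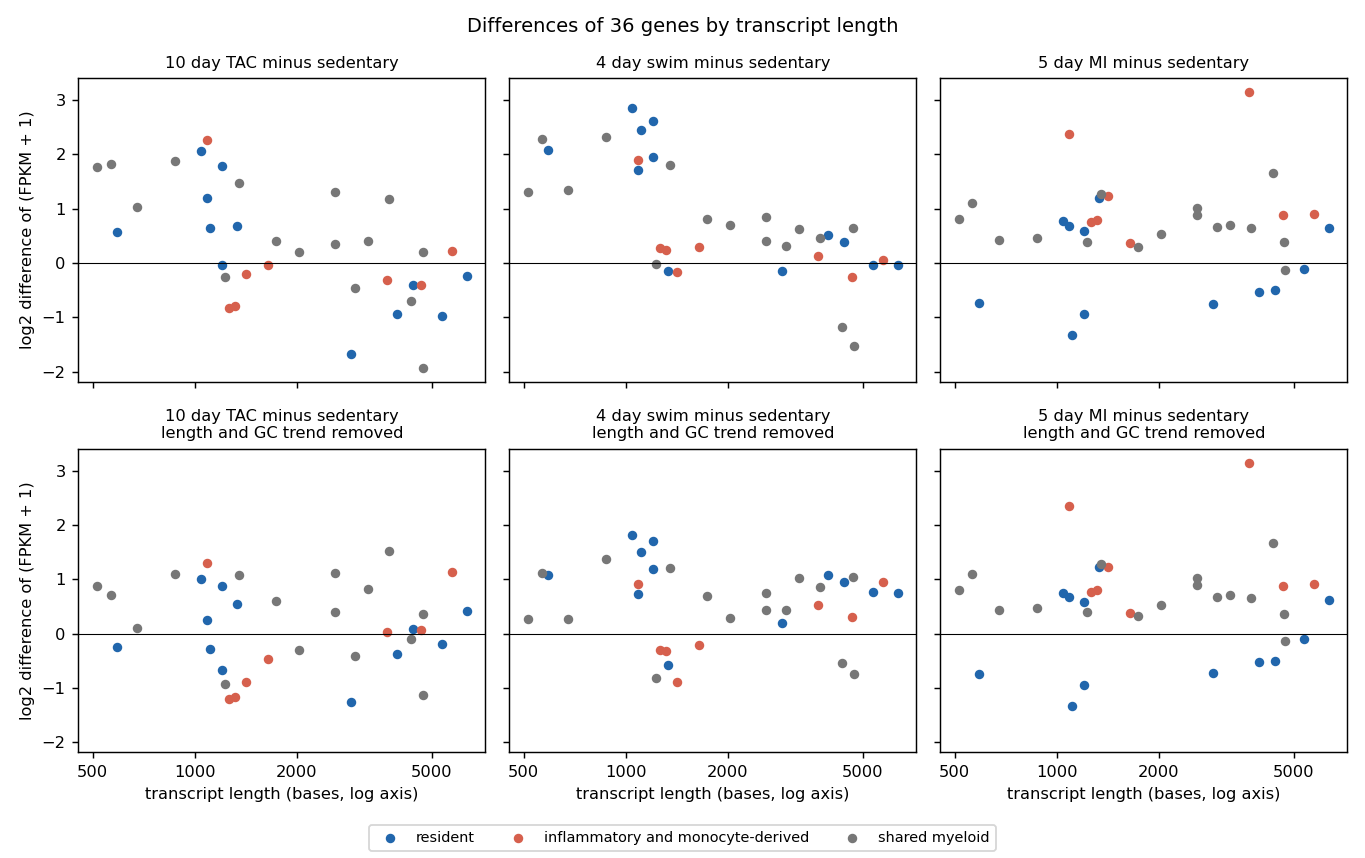
Log2 difference of each of the 36 genes against transcript length (log axis, bases) in 3 comparisons with sedentary samples, from the deposited values in the upper row and length-corrected in the lower row. The slope seen for 10 day TAC and 4 day swim above (Spearman -0.643 and -0.691) is nearly flat below (-0.104 and -0.17), and MI is flat in both.

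Over the 19 fibroblast libraries, which share the length trend and unknown depths, the correlation of C1qa with C1qc was 0.996 (0.992 length-corrected). C1qb correlated at 0.933 with C1qa and 0.944 with C1qc, and at 0.665 and 0.695 length-corrected. Of the other 33 genes 10 exceeded a correlation of 0.6 with the mean of the 3 C1q genes, led by Aif1 (0.946), Fcer1g (0.919) and Tyrobp (0.899), and 14 were below 0, with Ptprc at -0.651. Length-corrected, 13 exceeded 0.6, among them the long genes Csf1r (0.93), Emr1 (0.809) and Mrc1 (0.725), and 5 were below 0. Over all tested genes the patterns most like the C1q mean were those of Cnppd1 (0.967), Blvra (0.966), Rgs10 (0.956), Rac3 (0.949) and Hfe (0.947). The genes most like the inflammatory mean were Cd84 (0.904) and Clec7a (0.900), followed by the paired receptor genes Pira and Lilr, whose near-identical copies make their values uncertain.

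Cardiomyocyte samples carried less of the set than sedentary fibroblast samples. Of the 36 genes 34 were called lower than in sedentary fibroblast samples, where 38.6% of all genes were, and 0 higher, where 38.7% were. The sum over the genes was 163 to 467 FPKM in cardiomyocytes, against 1136 to 1558 FPKM in sedentary fibroblast samples. The lysozyme genes held much of the cardiomyocyte sum: Lyz1 had 133, 42.9 and 109 FPKM there, and Lyz2 had 132, 43.7 and 110 FPKM. In sedentary fibroblasts Lyz1 had 258, 288 and 264 FPKM. All but 1 gene were lower in every cardiomyocyte library, where 39.3% of all genes were.

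The lipopolysaccharide co-receptor gene Cd14 had 15.5, 3.02 and 3.56 FPKM in cardiomyocytes, against 134, 165 and 87.8 FPKM in sedentary fibroblasts, a difference of -4.23. Lgals3 had 1.84, 0.669 and 1.07 FPKM in cardiomyocytes, against 20.9, 39.7 and 15.4 FPKM in sedentary fibroblasts (-3.51). The groups were far apart for these genes, and less so for C1qa, at 32.4, 11.2 and 19.1 FPKM in cardiomyocytes against 53.5, 73.5 and 54 FPKM in sedentary fibroblasts. Maf (-0.42, adjusted p = 0.131) and Cx3cr1 (0.19, adjusted p = 0.294) were not called, and in the length-corrected fit Cx3cr1 was the 1 gene called higher (0.50, adjusted p = 0.0131), where 40.5% of all genes were, and 32 were called lower, where 34.7% were. Trem2 was not called without cardiomyocyte replicate 2 or sedentary replicate 2 or 3 (-0.73 to -0.58), nor Fcgr3 without each library except cardiomyocyte replicate 1 (-0.96 to -0.63). Median differences were -1.93 for resident, -1.61 for inflammatory and -2.44 for shared genes, beside -0.05 over all genes.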

How the data were processed

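Poly-A RNA of 19 cardiac fibroblast and 3 cardiomyocyte samples was sequenced from stranded libraries, per the labels. The authors deposited FPKM values for 23359 genes, made with Cufflinks 2.0.2 on mm10 per the submitters' processing notes. The sources used here name no aligner or annotation, and 44 columns of confidence bounds in the deposited table were not used. The values hold no counts, so depth per sample is unknown, and no interval for single values is given here.

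The 36 genes were matched by symbol (35) or older symbol (1, Spi1, listed as Sfpi1). The genes, role groups and marker lists were chosen with earlier results of these data known. Genes named outside the set were, per list and comparison, up to 3 called genes with the largest difference and at least 5 FPKM in the higher group, and the 10 most alike by correlation.

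Values were taken as log2(FPKM + 1), kept where at least 2 libraries reached 1 FPKM, and tested with limma 3.58.1 (R 4.3.3), with a mean-variance trend and robust variance, in a joint fit of the 19 fibroblast libraries (9425 genes) and another of all 22 (10371 genes) for cardiomyocytes. p-values are two-sided and Benjamini-Hochberg adjusted over all genes tested. A gene is called at an adjusted p under 0.05. Alternatives were median scaling, removal of each library's trend with transcript length and GC content (spline, 4 degrees of freedom, 9353 genes), a pseudocount of 0.1, no filter, fits of the compared groups alone, a replicate block and leaving out each library. The code was tested on simulated data. GENCODE M21 gave lengths and lysozyme sequences, and RefSeq the windows before gene starts.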

Additional observations from a re-analysis of the deposited data

Results flagged for a closer look

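The changes between the early and the late time differed between TAC and swimming for 3 of the 36 macrophage genes, by limma's test of the difference between the 10 day minus 3 day TAC change and the 10 day minus 4 day swim change. Gpnmb differed by -1.39 ± 0.39 (SE, adjusted p = 0.0434), from a TAC change of -1.33 and a swim change of 0.06, and by -1.24 (adjusted p = 0.0682) with the length and GC trend removed. Aif1 differed by 1.25 ± 0.30 (adjusted p = 0.0221), with a TAC change of 0.45 and a swim change of -0.80, and by 1.01 (adjusted p = 0.0476) with the trend removed. Cx3cr1 differed by 1.09 ± 0.24 (adjusted p = 0.0141), with a TAC change of 0.63 and a swim change of -0.46, and by 1.25 (adjusted p = 0.0127) with the trend removed. The early day is not the same in the 2 courses, so the day and the kind of load cannot be told apart.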

How the results depend on the processing

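Of 4860 values of single genes under the alternatives, 4544 kept their side of the threshold, 206 no longer passed it and 103 newly passed it. Another 7 reversed, which means a change of sign with a call in at least 1 of the fits compared. Sign changes of genes called in neither fit were counted among the 4544. All 7 reversals came with removal of the length and GC trend. For 3 day TAC minus sham they were C1qa -0.051, C1qb -0.91, C1qc -0.17, Fcer1g -0.23 and Ccr2 0.93. For 4 day swim minus sedentary it was Maf 0.76, and for MI minus 10 day TAC it was Ccr2 -0.23. Counts of genes called higher moved with that removal to 2 (3 day TAC minus sham), 6 (10 day swim minus sedentary) and 1 (cardiomyocytes), and counts called lower to 6 (10 day TAC minus sedentary), 3 (MI minus 10 day TAC) and 0 (TAC course minus swim course). Median scaling gave 3 higher and 2 lower for MI and 7 lower for 10 day TAC minus sedentary. With no filter on low values 4 were higher for MI, 0 higher for 10 day minus 3 day TAC and 0 lower for the courses. With a pseudocount of 0.1, 0 were higher for 10 day minus 3 day TAC. Fits of the compared groups alone gave 4 higher for 3 day TAC minus sham, 3 higher for MI and 0 higher for 10 day minus 3 day TAC. Apart from the fits with a trend or fewer genes or samples, the cause was not tested.

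With each library left out in turn, genes called higher and lower ranged over 2 to 10 and 2 to 13 for 3 day TAC minus sham, 11 to 15 and 2 to 8 for 10 day TAC minus sedentary, 3 to 10 and 0 to 1 for MI minus sedentary, and 12 to 17 and 2 to 2 for 4 day swim. They ranged over 10 to 13 and 1 to 4 for 10 day swim, 0 to 9 and 0 to 0 for sham, 0 to 1 and 1 to 3 for 10 day minus 3 day TAC, and 0 to 0 and 0 to 0 for 10 day minus 4 day swim. The ranges were 2 to 10 and 3 to 5 for 10 day swim minus 10 day TAC, 6 to 13 and 6 to 9 for MI minus 10 day TAC, 1 to 2 and 0 to 3 for the courses, and 0 to 0 and 32 to 34 for cardiomyocytes. A setting that left 1 sample in a group assumed it to vary like the other groups.

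A replicate block could be fitted over 4 MI and sedentary libraries and 6 cardiomyocyte and sedentary libraries that share numbers or tags. With the block 0 genes were called lower after MI, where Cbr2 was at -1.23 (adjusted p = 0.0511). Mpeg1 (1.90, adjusted p = 0.0606), Laptm5 (1.09, adjusted p = 0.0741) and Cx3cr1 (0.60, adjusted p = 0.18) were also no longer called, and Fcgr3 (1.34, adjusted p = 0.0381) and Tyrobp (1.31, adjusted p = 0.0407) were called higher. In cardiomyocytes Fcgr1 was not called with the block (-1.33, adjusted p = 0.14) and Maf was called lower (-0.42, adjusted p = 0.00929). Deviations of same-numbered MI and sedentary libraries correlated at -0.33, and those of same-tagged cardiomyocyte and fibroblast libraries at 0.23, 0.07 and 0.31, with each cardiomyocyte library closest to its own tag. The titles give cardiomyocyte and sedentary fibroblast libraries matching tags, 1 of them with a shared date, but do not say that a pair came from the same animals, so the block is given as an alternative only. Depth is unknown and the deposited confidence bounds were not used, so no error within a library is given for genes under about 1 FPKM, such as Cx3cr1.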

Other observations

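Further macrophage genes outside the set were read from lists drawn up with earlier results known. Of 14 other resident genes tested, 8 were called higher and 1 lower after 4 days of swimming against sedentary samples, with a median of 0.63, where 38.2% of all genes were higher and 26.3% lower. They included the organic anion transporter gene Slco2b1, at a mean of 10.8 FPKM after swimming and 3.33 FPKM in sedentary samples, and the eosinophil chemokine gene Ccl24, at 8.71 FPKM after swimming and 2.50 FPKM in sedentary samples. Of 14 other inflammatory genes, 6 were called higher and 3 lower after 4 days of swimming (median 0.52). The monocyte antigen gene Ly6c2 was at 204 FPKM after swimming and 83.2 FPKM in sedentary samples (adjusted p = 4.65e-05). Length-corrected, 38.1% of all genes were higher after 4 days of swimming and 15.8% lower. In that fit 7 of the resident genes were higher and 1 was lower (median 0.57). Of the inflammatory genes only 1 was higher there, and 3 were lower (median 0.30). Of the 14 resident genes, 5 were higher and 1 was lower in 10 day swim samples than in 10 day TAC samples, where 10.9% of all genes were higher and 13.2% lower, with the ficolin gene Fcna at 5.54 FPKM in swim and 1.45 FPKM in TAC samples. Fcrls, a scavenger receptor-like gene of microglia and macrophages, was the gene called lower there, at 10.9 FPKM in swim and 24.8 FPKM in TAC samples.

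Of 14 other inflammatory genes tested, 4 were called higher after MI than in sedentary samples, and 0 lower, with a median of 0.97, where 8.93% of all genes were higher and 2.34% lower. Plac8, a gene of monocytes, averaged 13.9 FPKM after MI and 0.966 FPKM in sedentary samples, and the beta-glucan receptor gene Clec7a averaged 11.1 FPKM after MI and 3.03 FPKM in sedentary samples. At 3 days of TAC 6 were higher than in sham samples and 1 lower (median 0.60), where 31.3% of all genes were higher and 25.8% lower. Length-corrected, 3 were higher and 2 lower (median 0.13), where 28.2% and 17.4% of all genes were. Plac8 averaged 33.9 FPKM after TAC and 1.73 FPKM in sham samples (3.60), and Chi3l3, a chitinase-like gene, averaged 21.7 FPKM after TAC and 0.893 FPKM in sham samples (2.96). At 10 days of TAC 4 of these genes were lower than at 3 days, and 0 higher (median -0.77), where 2.18% of all genes were lower and 4.42% higher. Plac8 averaged 6.75 FPKM at 10 days and 33.9 FPKM at 3 days, and Chi3l3 averaged 0.841 FPKM at 10 days and 21.7 FPKM at 3 days. Summed neutrophil markers were 5.43 to 10.4 FPKM at 10 days and 14.6 to 142 FPKM at 3 days, and their part was not tested.

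Growth factors and attractants of macrophages also differed between groups. Of the 8 genes of this list, 2 were called higher and 3 lower 10 days after TAC than in sedentary samples, where 38.8% and 27% of all genes were. Length-corrected, 1 was higher and 5 were lower, where 37.8% and 17.9% were. After 4 days of swimming 1 was higher and 2 were lower, where 38.2% and 26.3% were. Length-corrected, 0 were higher and 5 lower, where 38.1% and 15.8% were. Csf1 averaged 14.1 FPKM 10 days after TAC and 226 FPKM in sedentary samples (-3.67 ± 0.94, adjusted p = 0.00363). It averaged 22.7 FPKM after 4 days of swimming, against the same sedentary samples (-3.55 ± 0.94, adjusted p = 0.00445). The monocyte chemokine genes Ccl2 and Ccl7 averaged 1147 and 737 FPKM after 10 days of swimming, and 186 and 140 FPKM after 10 days of TAC (2.63 and 2.38). In that comparison 2 genes of the list were called higher, where 10.9% of all genes were, and 3 lower, where 13.2% were. Ccl8 was called higher in sham than in sedentary samples, at 43.8 FPKM in sham and 6.68 FPKM in sedentary samples (2.50 ± 0.37, adjusted p = 0.033). In cardiomyocytes 7 of the 8 genes of this list were lower than in sedentary fibroblasts (median -3.89), where 38.6% of all genes were.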
